A study of Homo sapiens with 10 samples.

Results

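The enzymes and readers that write, erase and bind modifications of histones and DNA were followed in HuCCT1 cells, an established human line from intrahepatic cholangiocarcinoma, a cancer of the bile ducts. They were taken by name: genes whose symbol starts with KDM, KMT, HDAC, SIRT, PRMT, SETD, CBX or TET followed by a number, the DNA methyltransferases DNMT1, DNMT3A and DNMT3B, the Polycomb genes EZH1, EZH2, SUZ12 and EED, and SUV39H1, SUV39H2, EHMT1, EHMT2, DOT1L and NSD1. Older MLL and WHSC1 names counted too, and through the latter NSD2 and NSD3 are members. That gave 85 of the 19775 genes on the arrays, read by 245 probe sets, and each gene was read by the brightest probe set that names it alone. The Y-linked member KDM5D was measured and is in the counts, but its values are not given. CBX8 and KDM4E were not analysed here. Counts by enzyme class cover members only, and 17 measured methyltransferases and demethylases outside the naming rule are counted as a separate list.

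RNA was measured on 10 Affymetrix arrays. There were 5 of cells carrying an empty vector and 5 of cells carrying a vector for the YAP1 construct that the sample labels call YAPS94A. All cells were HuCCT1 grown in RPMI medium with fetal bovine serum. YAP1 is the transcriptional co-activator restrained by the Hippo kinases, which drives genes mainly through TEAD proteins. The sample labels and the series title give the substitution S94A, which weakens TEAD binding, while the design text gives S127A and a constitutively active protein. The cells were transfected, per the design text, and neither the time after transfection nor whether cells were clones or pools is stated there. The construct is called by its sample label throughout.

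Histone deacetylases and sirtuins remove acetyl groups from lysines, whereas lysine methyltransferases, arginine methyltransferases and lysine demethylases set and remove methyl groups. The outcome depends on the residue: methylation of H3K4 marks active promoters and enhancers, and methylation of H3K9 and H3K27 marks silent chromatin. CBX proteins bind these silent marks, DNMT enzymes methylate cytosine and TET enzymes oxidise that mark. Several of these enzymes are mutated, raised or targeted by inhibitors in cancers of the bile duct and elsewhere, and many also modify proteins other than histones.

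The deposited values are log2 signals, so a difference of 1 is a doubling. Array medians lay between 6.25 and 6.28, and arrays of the same vector correlated at 0.9957 to 0.9991, those of different vectors at 0.9867 to 0.9902. YAP1 itself went from 12.32 ± 0.22 with empty vector to 12.85 ± 0.18 with the construct (mean ± SD, n = 5), a difference of 0.52 ± 0.11 (SE, limma adjusted p = 0.00277), while the median of its 30 chromosome neighbours was 0.26. Of 7 measured markers of biliary epithelium (keratins KRT7, KRT8, KRT18 and KRT19, CDH1, EPCAM and SOX9) 5 rose and 0 fell, with a mean level of 13.34 to 13.41 on the empty vector arrays and 13.47 to 13.55 on the construct arrays. Among markers of other cells, 1 of 6 for fibroblasts rose (LUM, 2.67 ± 0.088), 1 of 4 for leukocytes fell (LYZ, -1.48 ± 0.12), 1 of 5 for hepatocytes fell (SERPINA1, -0.19 ± 0.042) and 0 of 4 for endothelium passed the limma test (0 at an unadjusted p under 0.05). Mean levels of the fibroblast list were 6.30 to 6.45 and 6.71 to 6.81, and those of the leukocyte list 5.69 to 5.79 and 5.30 to 5.45, on empty vector and construct arrays. The part of these markers in the results below was not tested.

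The chromatin enzymes shifted in both directions and by little. Of the 85 members, 16 were higher with the construct, 20 were lower and 49 did not pass the limma test (Benjamini-Hochberg adjusted p under 0.05 over all genes). Over all genes 36.3% passed, 18.6% higher and 17.6% lower, against 42.4% of members, 18.8% higher and 23.5% lower. Members were well expressed, with 76 of the 85 above the median level of all genes, and in that upper group 34 of 76 members passed (44.7%) against 52.4% of all genes. The share of members called was near the background. Arrays of the 2 vectors did not overlap for 28 members (32.9%) and for 29.1% of all genes. The median difference was -0.048 for members and -0.0038 for all genes. A single member, HDAC11, differed by at least 2-fold (1.18% of members, against 3.27% of all genes), and 33 passed with a difference under 1.5-fold (38.8% of members, against 28.0% of all genes). Nothing in the labels ties arrays of one vector to separate cultures, so p-values cover only the spread seen among 5 arrays, which can be technical. For each member whose arrays did not overlap, the exact two-sided permutation p was 0.00794, the smallest that 5 against 5 arrays allow.

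**Figure D1:**
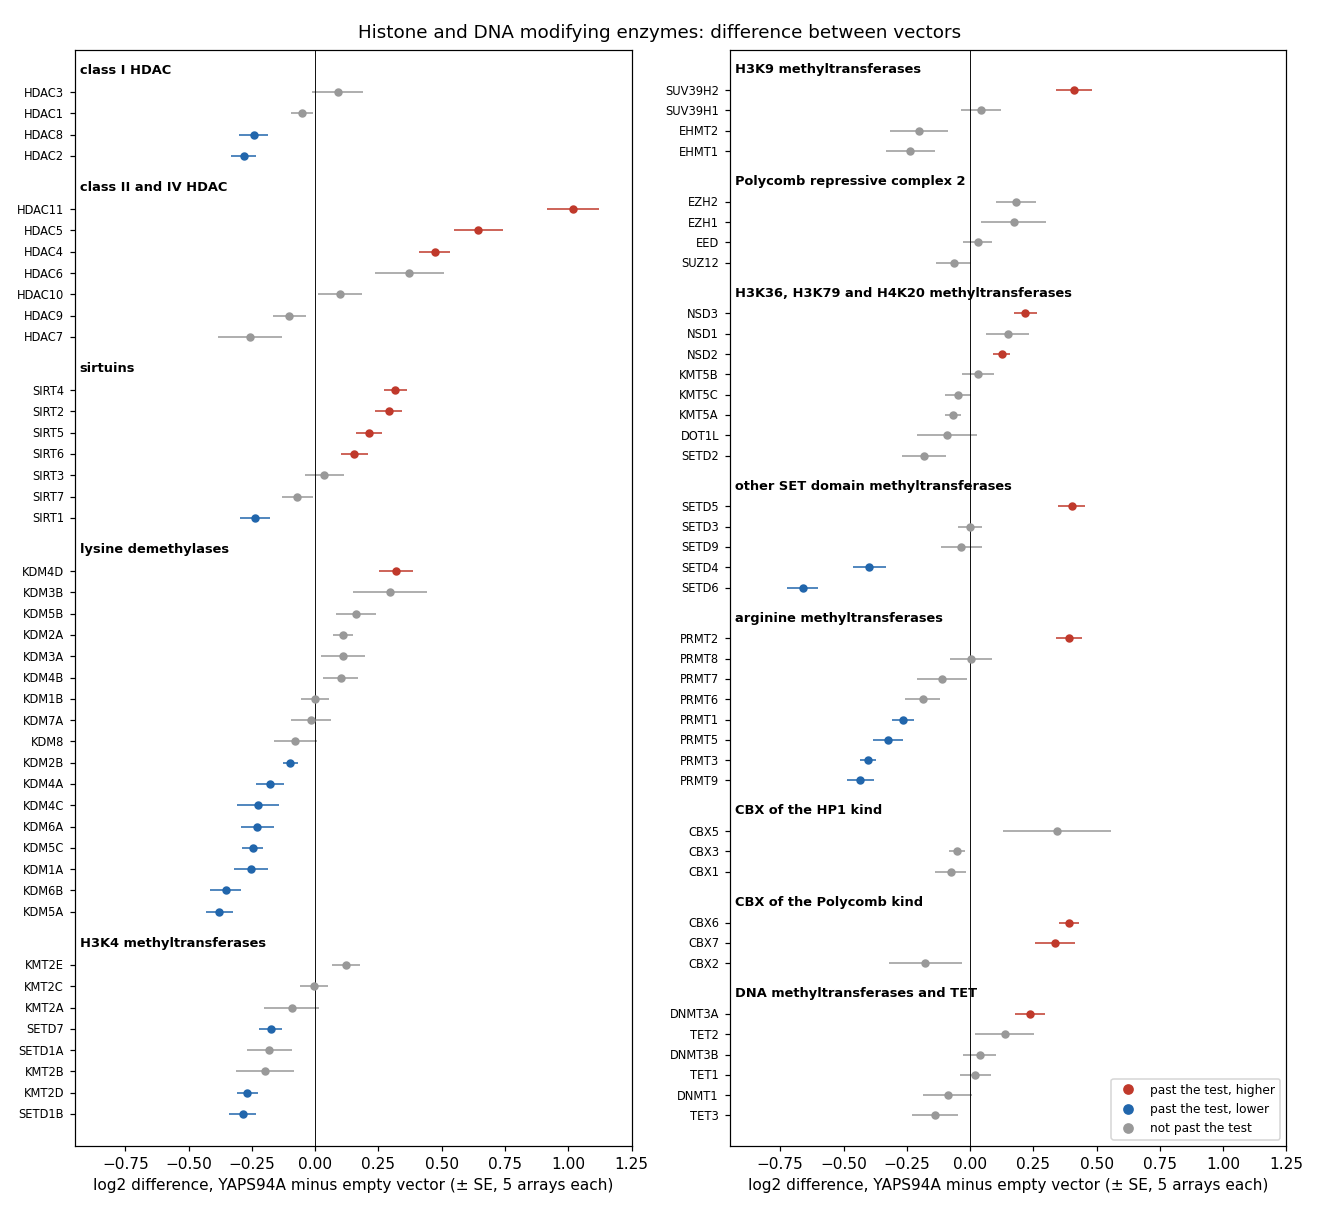
Log2 difference (YAPS94A minus empty vector) of 84 members, with its SE from limma on 5 arrays each, grouped by enzyme class; red and blue points passed the test and grey ones did not. HDAC11 (1.02) and SETD6 (-0.66) lie farthest from 0, and every other point but that of HDAC5 lies within 0.5 of it.

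The promoters of 4 members with a difference of at least 0.40 are shown because these members, each with a single RefSeq start, kept their direction and call relative to their chromosome neighbours. They are the 250 bases before the RefSeq start (GRCh38.p14), read 5′ to 3′. Capitals mark the letters GGAATG, the core bound by TEAD proteins, or CACGTG, the E-box core bound by MYC and related factors, searched on both strands. Matches of the 2 motifs can share at most 1 base.
HDAC11, chr3:13480056-13480305, plus strand: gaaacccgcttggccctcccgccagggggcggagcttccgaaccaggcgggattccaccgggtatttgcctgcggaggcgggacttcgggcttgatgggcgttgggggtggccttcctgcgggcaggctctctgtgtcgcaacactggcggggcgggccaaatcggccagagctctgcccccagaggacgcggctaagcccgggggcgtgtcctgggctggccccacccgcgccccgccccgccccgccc
SETD6, chr16:58515267-58515516, plus strand: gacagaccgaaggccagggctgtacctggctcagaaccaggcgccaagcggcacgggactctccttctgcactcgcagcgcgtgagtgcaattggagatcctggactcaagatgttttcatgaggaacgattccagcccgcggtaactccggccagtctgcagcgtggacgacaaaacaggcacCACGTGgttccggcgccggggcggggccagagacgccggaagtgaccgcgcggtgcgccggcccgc
PRMT3, chr11:20387466-20387715, plus strand: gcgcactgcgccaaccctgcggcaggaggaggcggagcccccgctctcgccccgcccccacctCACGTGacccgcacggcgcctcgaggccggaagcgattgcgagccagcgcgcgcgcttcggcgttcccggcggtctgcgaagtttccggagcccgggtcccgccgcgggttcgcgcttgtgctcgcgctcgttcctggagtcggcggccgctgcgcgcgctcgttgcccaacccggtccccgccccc
PRMT9, chr4:147684164-147684413, minus strand: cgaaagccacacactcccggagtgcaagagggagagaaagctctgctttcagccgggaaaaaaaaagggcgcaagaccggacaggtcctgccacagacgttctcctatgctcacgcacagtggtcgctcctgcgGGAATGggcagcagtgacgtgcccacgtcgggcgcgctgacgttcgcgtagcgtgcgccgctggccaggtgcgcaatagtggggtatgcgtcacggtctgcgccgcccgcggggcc
The SETD6 and PRMT3 stretches each hold CACGTG, starting 66 and 187 bases before the start, the PRMT9 stretch holds GGAATG 116 bases before it, and the HDAC11 stretch holds neither. Over the whole RefSeq table, GGAATG was in 11.9% of 35116 promoter stretches of this length and CACGTG in 6.34%. The table held 78 members with 122 starts, of which 11 starts (9.02%) had GGAATG and 16 (13.1%) had CACGTG. By call, CACGTG was in 6 of 23 starts of members that fell, in 4 of 26 of those that rose and in 6 of 73 of those that did not pass, and GGAATG was in 2, 2 and 7. Member promoters were richer in CpG than the table as a whole, with a median observed over expected CpG of 0.84 against 0.558 and a median GC content of 68.0% against 58.0%. A match of letters is a description and not a bound site.

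The zinc-dependent deacetylases held calls in both directions, and 36.3% of all genes passed, 18.6% higher and 17.6% lower. Of 7 class II and IV genes 3 rose and 0 fell in limma (4 passed at an unadjusted p under 0.05), with a median difference of 0.37. Of 4 class I genes 0 rose and 2 fell (2 at an unadjusted p under 0.05), with a median of -0.15. The classes were not tested against each other. Against the direction of their class, HDAC7 passed as lower with the block and HDAC8 rose on another probe set. HDAC2 was higher relative to neighbours. These values are given below. With RNA quality as a covariate, also described below, HDAC3 passed as higher (0.15, limma adjusted p = 0.00305) and HDAC9 as lower (-0.13, 0.0198), again against their class. In that fit HDAC7 was lower as well (-0.18, 0.00174), while HDAC6 (0.45, 3.84e-06) and HDAC10 (0.15, 0.0187) passed as higher. HDAC11, the sole class IV enzyme, which also removes fatty acyl groups, read 7.64, 7.46, 7.36, 7.09 and 7.20 on the empty vector arrays and 8.39, 8.63, 8.25, 8.28 and 8.31 on the construct arrays 1 to 5. The lowest construct array stood 0.60 above the highest empty vector array. The difference was 1.02 ± 0.10 (SE, adjusted p = 8.63e-06), a 2.03-fold rise. The second HDAC11 probe set, slightly dimmer, rose by 0.62 ± 0.069. HDAC5 and HDAC4 are class IIa enzymes, which shuttle between cytoplasm and nucleus and restrain MEF2 factors. HDAC5 read 8.24, 8.02, 8.15, 7.87 and 7.85 with empty vector and 8.72, 8.94, 8.67, 8.56 and 8.46 with the construct, without overlap, and rose by 0.65 ± 0.097 (1.56-fold, adjusted p = 0.000226). Its second, dimmer probe set differed by 0.13 ± 0.067 and did not pass (adjusted p = 0.198 in the fit of every probe set). HDAC4 read 9.45, 9.20, 9.31, 9.19 and 9.12 with empty vector, against 9.74, 9.84, 9.69, 9.69 and 9.66 with the construct, again with every construct array above every empty vector array, a rise of 0.47 ± 0.062 (adjusted p = 7.37e-05). Its next probe set rose by 0.59 ± 0.043, and the dimmest differed by 0.11 ± 0.057 (adjusted p = 0.201).

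The other class IIa paralogues did not pass, with HDAC7 at -0.26 ± 0.13 (adjusted p = 0.147) and HDAC9 at -0.10 ± 0.065 (0.268). HDAC6, the cytoplasmic tubulin deacetylase of class IIb, was at 0.37 ± 0.14 with an adjusted p of 0.0514, and HDAC10, a polyamine deacetylase of the same class, at 0.100 ± 0.087. Of the 2 other HDAC6 probe sets, both dimmer, 1 rose (0.25 ± 0.0725, adjusted p = 0.0209 in the fit of every probe set) and 1 did not pass (0.043 ± 0.0825). HDAC6 and HDAC7 are taken up again with the array pairs. In class I, HDAC2, a catalytic subunit of the SIN3, NuRD and CoREST repressor complexes, read 12.94, 12.86, 13.04, 13.01 and 12.996 with empty vector and 12.66, 12.56, 12.69, 12.72 and 12.79 with the construct. All construct arrays lay below all empty vector arrays, and HDAC2 fell by 0.28 ± 0.051 (adjusted p = 0.000812). Its neighbours on chromosome 6 lay lower still, with a median difference of -0.57. HDAC8, an enzyme that acts on cohesin, fell by 0.24 ± 0.056 on its brightest probe set (adjusted p = 0.00482), with a slight overlap of arrays. Its next probe set, at 9.45 against 10.06 for the brightest, rose by 0.19 ± 0.035 (adjusted p = 0.00116), so the HDAC8 probe sets passed in opposite directions. HDAC1 differed by -0.053 ± 0.044 and HDAC3 by 0.089 ± 0.100, and neither passed.

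The sirtuins, which use NAD, rose in 4 of 7 cases and fell in 1, where 18.6% of all genes were higher and 17.6% lower, with a median difference of 0.15. SIRT4, a mitochondrial enzyme, was the dimmest of the family and rose from 5.18 ± 0.064 to 5.50 ± 0.068 (mean ± SD, n = 5; 0.32 ± 0.045, adjusted p = 0.000141). Its level lay near 5.34, the lower quartile of gene levels. Its other probe set rose by 0.58 ± 0.15. SIRT2, a mainly cytoplasmic deacetylase, read 7.94, 8.02, 7.90, 7.79 and 7.82 with empty vector, against 8.25, 8.27, 8.13, 8.18 and 8.09 with the construct, with no overlap of the vectors, and rose by 0.29 ± 0.053. SIRT5, the mitochondrial desuccinylase, rose by 0.21 ± 0.051, and 2 of its other 5 probe sets rose while 3 did not pass. The call of SIRT6, a chromatin deacetylase of H3K9 and H3K56, was marginal (0.15 ± 0.054, adjusted p = 0.0438) and was lost in 13 of 22 alternatives. Among these it was lost without any 1 of 8 arrays, with adjusted p of 0.0745, 0.106, 0.0888 and 0.0817 without empty vector arrays 2 to 5 and 0.1, 0.0907, 0.055 and 0.0895 without YAPS94A arrays 1 to 4. SIRT1, the nuclear deacetylase of p53 and histones, fell by 0.24 ± 0.060 (adjusted p = 0.00774), with 9.39, 9.54, 9.55, 9.57 and 9.65 on empty vector arrays against 9.45, 9.17, 9.34, 9.27 and 9.28 on construct arrays, where construct array 1 overlapped. SIRT3 (0.035) and SIRT7 (-0.070) did not pass.

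**Figure D2:**
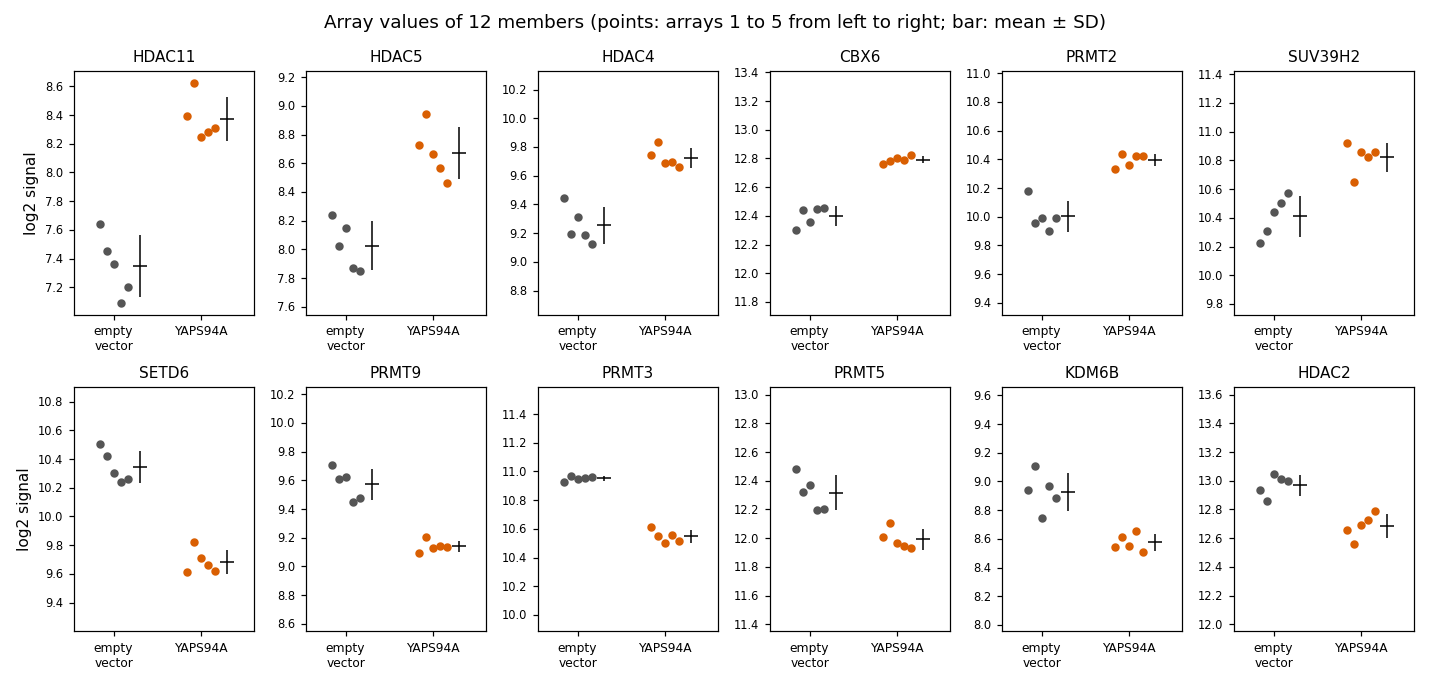
Log2 signal of 12 members on each of the 5 empty vector arrays (grey) and the 5 YAPS94A arrays (orange), with the mean ± SD as a bar beside each group; every panel spans the same length of log2 scale. The 12 were taken from the 28 members whose arrays do not overlap (32.9%, against 29.1% of all genes), so no panel shows overlap. HDAC11 shows the widest gap of the 12.

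Of 8 arginine methyltransferases 4 fell, 1 rose and 3 did not pass, where 17.6% of all genes were lower and 18.6% higher, and their median difference was -0.23. PRMT3, a cytoplasmic enzyme that methylates a small ribosomal subunit protein, read 10.92, 10.97, 10.95, 10.95 and 10.96 with empty vector and 10.61, 10.55, 10.50, 10.56 and 10.51 with the construct. Arrays of each vector lay close together, and PRMT3 fell by 0.40 ± 0.033 (adjusted p = 1.38e-06). PRMT9, a methyltransferase of a splicing factor, read 9.71, 9.61, 9.62, 9.45 and 9.47 with empty vector, against 9.09, 9.20, 9.13, 9.14 and 9.13 with the construct. Its arrays did not overlap either, and it fell by 0.43 ± 0.051 (1.35-fold, adjusted p = 3.38e-05). PRMT5, the main enzyme of symmetric arginine dimethylation, read 12.48, 12.32, 12.37, 12.19 and 12.20 with empty vector, against 12.01, 12.10, 11.96, 11.94 and 11.93 with the construct, and fell by 0.32 ± 0.060 (adjusted p = 0.00103). All 3 PRMT5 probe sets were bright, and the other 2 fell by -0.30 ± 0.054 and -0.31 ± 0.058 as signed differences. PRMT1, the main enzyme of asymmetric dimethylation, read 12.35, 12.29, 12.16, 12.30 and 12.33 with empty vector, against 11.98, 11.98, 12.01, 12.10 and 12.04 with the construct, and fell by 0.27 ± 0.043 (adjusted p = 0.000415). The other PRMT1 probe set was much dimmer (7.06) and differed by -0.041 ± 0.046.

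PRMT2, a coactivator with weak methyltransferase activity, went the other way. It read 10.18, 9.96, 9.99, 9.90 and 9.99 with empty vector and 10.34, 10.43, 10.36, 10.42 and 10.42 with the construct, a rise of 0.39 ± 0.052 (adjusted p = 7.89e-05). That probe set ends in _x_at and is open to cross-hybridisation, but of the 6 others 2, ending in _at and _s_at, rose by 0.44 ± 0.059 and 0.40 ± 0.076, and 4 did not pass. PRMT6, which marks H3R2, differed by -0.19 ± 0.069 (adjusted p = 0.0544), PRMT7 by -0.11 ± 0.099 and the brain enzyme gene PRMT8 by 0.0042 ± 0.084 at a level of 4.87, below the lower quartile of genes.

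Of 18 measured lysine demethylases 8 fell, 1 rose and 9 did not pass, where 17.6% of all genes were lower and 18.6% higher, with a median difference of -0.078. KDM5A and KDM5C remove methyl groups from H3K4. KDM5A read 11.12, 11.28, 11.29, 11.37 and 11.32 with empty vector and 10.97, 10.78, 10.92, 10.87 and 10.94 with the construct and fell by 0.38 ± 0.053 (adjusted p = 0.000135). All 4 of its other probe sets also fell, by differences from -0.31 ± 0.060 to -0.63 ± 0.095. KDM5C read 9.33, 9.22, 9.25, 9.29 and 9.40 with empty vector, against 9.004, 9.05, 9.07, 9.09 and 9.02 with the construct, and fell by 0.25 ± 0.041, its other probe set by -0.33 ± 0.044 as a signed difference. Their paralogue KDM5B differed by 0.16 ± 0.078 (adjusted p = 0.143). KDM6B (JMJD3), the inducible demethylase of H3K27, read 8.94, 9.10, 8.74, 8.97 and 8.89 with empty vector, against 8.54, 8.61, 8.55, 8.66 and 8.51 with the construct. No construct array reached the lowest empty vector array, and KDM6B fell by 0.35 ± 0.061 (adjusted p = 0.000617), with the next 2 probe sets in brightness lower as well (-0.38 ± 0.070 and -0.20 ± 0.063). KDM6A (UTX), its X-linked paralogue, fell by 0.23 ± 0.064 with no overlap, but its 3 other probe sets did not pass, and the call was lost in the mean of the KDM6A probe sets (-0.10, adjusted p = 0.47; 0.00357 to 0.808 over the alternatives).

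KDM1A (LSD1), the amine oxidase that demethylates H3K4, read 11.93, 11.73, 12.01, 11.93 and 11.97 with empty vector, against 11.75, 11.46, 11.66, 11.69 and 11.73 with the construct, a slight overlap, and fell by 0.25 ± 0.066 (adjusted p = 0.0096). KDM4A and KDM4C remove methyl groups from H3K9 and H3K36. KDM4A fell by 0.18 ± 0.054 (adjusted p = 0.0218), and this call was lost without empty vector array 2 (adjusted p = 0.0533) or 3 (0.0513) or YAPS94A array 4 (0.0552) or 5 (0.0555), within a range of 0.000902 to 0.0555 over all alternatives. KDM4C was marginal at -0.23 ± 0.082 (adjusted p = 0.0494) and lost its call without empty vector array 1 (0.0953), 3 (0.0997), 4 (0.0583) or 5 (0.0715) and without YAPS94A array 1 (0.0752), 2 (0.104), 4 (0.0754) or 5 (0.0837). Its dimmer probe sets fell by more, at -0.33 ± 0.060 and -0.60 ± 0.065. KDM2B, which carries a Polycomb complex to CpG islands, fell by 0.099 ± 0.030 without overlap (adjusted p = 0.0229, and 0.0512 without YAPS94A array 3). The one rise was KDM4D, from 7.14 ± 0.10 to 7.46 ± 0.12 (mean ± SD, n = 5; 0.32 ± 0.067), a demethylase mainly known from testis. The hypoxia-induced H3K9 demethylase KDM3A (0.11), its paralogue KDM3B (0.30), KDM2A (0.11), KDM4B (0.100), KDM1B (-0.0008), KDM7A (-0.017) and KDM8 (-0.078) did not pass.

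Of 8 H3K4 methyltransferases 3 fell and 0 rose in limma (3 passed at an unadjusted p under 0.05), a share near the 36.3% of all genes that passed, with a median difference of -0.18. KMT2D (MLL4), which marks enhancers, read 12.07, 12.19, 12.02, 12.14 and 12.16 with empty vector, against 11.87, 11.91, 11.85, 11.78 and 11.86 with the construct, and fell by 0.27 ± 0.042 (adjusted p = 0.000319). The other 2 bright KMT2D probe sets were at -0.36 ± 0.056 and -0.42 ± 0.068, and both fell. SETD1B, a catalytic subunit of the COMPASS complex at promoters, read 11.29, 11.23, 11.30, 11.38 and 11.38 with empty vector, against 10.995, 10.87, 11.06, 11.08 and 11.14 with the construct, and fell by 0.29 ± 0.053 (adjusted p = 0.00112). SETD7, which adds a single methyl group to H3K4 and is also known to methylate YAP1 itself, fell by 0.18 ± 0.044 from a level of 12.18 (adjusted p = 0.00768), with no overlap of arrays. KMT2A (-0.093), KMT2B (-0.20), KMT2C (-0.0063), KMT2E (0.12) and SETD1A (-0.18) did not pass. KMT2A (MLL) is read by 10 further probe sets, of which 7 did not pass, the brightest of the 10 among them (-0.033 ± 0.13), and 3 dimmer ones between 7.17 and 9.39 fell by -0.22 ± 0.055, -0.48 ± 0.086 and -0.38 ± 0.086 as signed differences. Of the 2 further KMT2E probe sets 1 rose, by 0.19 ± 0.063 (adjusted p = 0.0375).

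Of the 4 members that write H3K9 methylation, SUV39H2 rose and the other 3 did not pass. Over all genes 18.6% were higher and 17.6% lower. SUV39H2 read 10.23, 10.31, 10.44, 10.51 and 10.57 with empty vector and 10.92, 10.65, 10.86, 10.82 and 10.86 with the construct, a rise of 0.41 ± 0.071 (adjusted p = 0.000627). It lies on chromosome 10 among neighbours that lay higher still, with a median difference of 0.80. Its X-linked paralogue SUV39H1 differed by 0.042 ± 0.079. EHMT1 (GLP) and EHMT2 (G9a), partners in dimethylation of H3K9, differed by -0.24 ± 0.097 (adjusted p = 0.082) and -0.20 ± 0.11 (0.204). EHMT1 passed in the blocked fit (adjusted p = 0.000849), as given with the array pairs. EHMT2 did not pass there (0.0524) but passed relative to its chromosome neighbours (-0.35 ± 0.084, limma adjusted p = 0.00515). Of its 2 other probe sets 1 fell (-0.13 ± 0.043, adjusted p = 0.049 in the fit of every probe set) and 1 did not pass.

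Of the SET domain proteins with mainly other substrates, SETD6 fell most among all members by their brightest probe sets. SETD6 methylates RelA, a subunit of NF-kB, and read 10.50, 10.42, 10.30, 10.24 and 10.26 with empty vector and 9.61, 9.82, 9.71, 9.66 and 9.62 with the construct. The vectors were 0.42 apart at their nearest arrays, and SETD6 fell by 0.66 ± 0.060 (1.58-fold, adjusted p = 3.37e-06). Its other probe set fell by -0.82 ± 0.10 as a signed difference. SETD4 read 10.34, 10.07, 10.19, 10.09 and 10.08 with empty vector, against 9.86, 9.84, 9.78, 9.63 and 9.66 with the construct, and fell by 0.40 ± 0.064, but its 2 other probe sets, also above 8, differed by -0.045 ± 0.037 and -0.0034 ± 0.10 and did not pass. SETD5, a chromatin regulator altered in intellectual disability, read 11.06, 11.33, 11.13, 11.28 and 11.24 with empty vector, against 11.53, 11.62, 11.63, 11.61 and 11.66 with the construct, and rose by 0.40 ± 0.053 (adjusted p = 8.18e-05), with 3 of 4 other probe sets higher. SETD3, the histidine methyltransferase of actin, was at 12.17 ± 0.082 and 12.17 ± 0.055 (mean ± SD, n = 5), a difference of 0.0005 ± 0.047, and SETD9 differed by -0.036 ± 0.081.

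The H3K36, H3K79 and H4K20 methyltransferases held 2 rises and 0 falls among 8 in limma (2 at an unadjusted p under 0.05). Both rises rest on some of several probe sets, and 18.6% of all genes were higher and 17.6% lower. NSD2 and NSD3 dimethylate H3K36. NSD3 rose by 0.22 ± 0.045 (adjusted p = 0.00239), and of its 6 other probe sets 1 rose and 5 did not pass, among them the next brightest at -0.037 ± 0.054. NSD2 rose by 0.12 ± 0.033 (adjusted p = 0.011), while of its other 5 probe sets 2 rose, 2 did not pass and 1 fell (-0.34 ± 0.041). NSD1 (0.15), SETD2 (-0.18), the H3K79 enzyme DOT1L (-0.090), and the H4K20 enzymes KMT5A (-0.068), KMT5B (0.033) and KMT5C (-0.048) did not pass. Dimmer probe sets of these uncalled genes passed in both directions. Both others of KMT5B rose, by 0.47 ± 0.047 and 0.53 ± 0.11, and 2 of 3 others of NSD1 rose, by 0.17 ± 0.047 and 0.29 ± 0.063. Both others of SETD2 were lower, at -0.31 ± 0.064 and -0.26 ± 0.066.

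Polycomb repressive complex 2 methylates H3K27. Of its 4 genes 0 passed the limma test (1 at an unadjusted p under 0.05), against 36.3% of all genes. Its catalytic subunit EZH2 differed by 0.18 ± 0.079 (adjusted p = 0.0994), the alternative subunit EZH1 by 0.17 ± 0.13, SUZ12 by -0.065 ± 0.070 and EED by 0.029 ± 0.056. The other EED probe set, at a level of 7.08, rose by 0.33 ± 0.083. With RNA quality as a covariate EZH2 (0.23, limma adjusted p = 5.93e-05) and EZH1 (0.25, 0.00247) passed as higher and SUZ12 (-0.10, 0.0367) as lower. EED did not pass (0.048, 0.463), and 44.1% of all genes passed in that fit. Of 3 measured CBX proteins of the Polycomb kind, which bind methylated H3K27, 2 rose, where 18.6% of all genes were higher. CBX6 was bright and tightly measured, at 12.30, 12.44, 12.36, 12.45 and 12.46 with empty vector and 12.76, 12.78, 12.80, 12.79 and 12.82 with the construct, and rose by 0.39 ± 0.039 (adjusted p = 8.09e-06), as did its other probe set (0.48 ± 0.044). CBX7 read 7.87, 7.83, 8.03, 7.55 and 7.78 with empty vector, against 8.19, 8.29, 8.14, 8.03 and 8.11 with the construct, and rose by 0.34 ± 0.079 (adjusted p = 0.00524), with only 0.0015 between the nearest arrays of the vectors, and without the arrays numbered 1 and 2 the adjusted p was 0.0698 (0.000528 to 0.0698 over the alternatives). CBX2 differed by -0.18 ± 0.14. Of the HP1 proteins that bind methylated H3K9, 0 of 3 passed in limma (0 at an unadjusted p under 0.05), with CBX1 at -0.077 ± 0.061, CBX3 at -0.051 ± 0.032 and CBX5 at 0.34 ± 0.21. CBX5 varied widely within a vector (10.30, 10.72, 10.33, 11.28 and 11.01 with empty vector), while 3 of its 5 other probe sets rose, by 0.33 ± 0.085, 0.32 ± 0.060 and, near background, 0.22 ± 0.058. Of the 3 others of CBX3, 1 was lower, at -0.31 ± 0.058 (adjusted p = 0.0014).

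Among enzymes of cytosine methylation 1 of 6 passed, against 36.3% of all genes. DNMT3A, a de novo methyltransferase, rose by 0.24 ± 0.060 from 9.06 ± 0.096 (SD, n = 5; adjusted p = 0.00817), and its 2 dimmer probe sets differed by 0.10 ± 0.076 and 0.092 ± 0.069. The maintenance enzyme DNMT1 differed by -0.089 ± 0.096 and DNMT3B by 0.037 ± 0.064. TET1 lay below the lower quartile of genes (5.22) and differed by 0.021 ± 0.062, TET2 by 0.14 ± 0.12 and TET3 by -0.14 ± 0.091.

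Lists of acetyltransferases, partners and cofactor genes were read alongside, and KAT2B, ACSS2 and IDH2 differed by most in them. Of 11 acetyltransferase genes 3 rose and 2 fell. KAT2B (PCAF) rose by 1.02 ± 0.100 (adjusted p = 6.77e-06), from 8.29 ± 0.20 to 9.31 ± 0.15 (mean ± SD, n = 5), about as much as HDAC11. NCOA1, a nuclear receptor coactivator, rose by 0.39 ± 0.059 and KAT5 by 0.20 ± 0.040. Of 19 Polycomb partners 2 rose and 4 fell, led by the PRC2 cofactor AEBP2 (-0.48 ± 0.074), PHC1 (-0.41 ± 0.045) and, upward, PHF1 (0.34 ± 0.065). Of 11 COMPASS subunits 2 rose and 3 fell, with WDR5, the shared scaffold, at -0.27 ± 0.036, ASH2L at 0.20 ± 0.034 and WDR82 at -0.19 ± 0.036. Of 19 subunits of deacetylase complexes 1 rose and 4 fell, with TBL1X at 0.35 ± 0.063, CHD3 at -0.27 ± 0.079 and CHD4 at -0.24 ± 0.081. Of 8 partners in DNA methylation 1 rose and 3 fell, with ZBTB38, a reader of methylated DNA, at 0.33 ± 0.051, the glycosylase TDG at -0.23 ± 0.031 and MBD4 at -0.18 ± 0.036. Of 17 methyltransferases and demethylases outside the naming rule 0 rose and 2 fell (4 at an unadjusted p under 0.05 in limma), RIOX1 (-0.12 ± 0.034) and RIOX2 (-0.11 ± 0.039). Of 12 genes that supply cofactors 5 rose and 1 fell. ACSS2, which makes acetyl-CoA from acetate, rose by 0.80 ± 0.073, IDH2, which makes the 2-oxoglutarate used by TET and JmjC enzymes, by 0.70 ± 0.087, and NAMPT, the limiting enzyme of NAD salvage, fell by 0.40 ± 0.053. Over all genes 36.3% passed. Relative to their chromosome neighbours AEBP2 (-0.16, adjusted p = 0.0698), WDR82 (-0.064, 0.44), RIOX1 (-0.072, 0.125) and RIOX2 (-0.024, 0.681) did not pass. PHC1 (0.037, adjusted p = 0.584), KAT5 (-0.036, 0.623) and CHD4 (0.014, 0.889) also did not pass and changed sign, with neighbours at -0.45, 0.25 and -0.29.

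Some members lay among chromosome neighbours that differed in 1 direction. For each gene, the median difference of its 30 nearest genes above the median level was taken. This median was at least 0.25 in size for 10 of 84 members (11.9%) and for 7.07% of all genes. HDAC2 fell by 0.28 ± 0.051 among chromosome 6 neighbours at -0.57. Once the neighbour median was subtracted on each array, HDAC2 was higher, at 0.25 ± 0.051 (adjusted p = 0.00192). HDAC2 was lower in all other alternatives, and adjusted p over all of them ran from 5.09e-05 to 0.00292. SUV39H2 turned the other way, from a rise of 0.41 among chromosome 10 neighbours at 0.80 to -0.39 ± 0.057 relative to them (0.000117). SUV39H2 was higher in all other alternatives, with adjusted p from 7.32e-05 to 0.00373 over all of them. KDM2A and KMT5B on chromosome 11, with neighbours at 0.30 and 0.28, read 0.11 and 0.033 before. After subtraction KDM2A was at -0.24 ± 0.054 (0.00317; 0.00317 to 0.173 over the alternatives) and KMT5B at -0.31 ± 0.048 (0.000238). The other calls of both were rises. KDM2A passed as higher in 10 alternatives. KMT5B passed as higher in the mean of its probe sets (0.34, adjusted p = 2.42e-06), and its highest adjusted p was 0.987. KDM4C, on chromosome 9 with neighbours at -0.36, went from -0.23 to 0.11 ± 0.076 (0.294; 0.000183 to 0.294 over the alternatives). KDM4C was lower in all other alternatives.

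Others kept their direction and lost their call relative to their neighbours. They were KDM5A (-0.11 ± 0.070, adjusted p = 0.237), SETD5 (0.12 ± 0.066, 0.165), KDM4D (0.15 ± 0.067, 0.0863), DNMT3A (0.16 ± 0.069, 0.0805), SIRT1 (-0.15 ± 0.057, 0.056), SIRT6 (0.065 ± 0.047, 0.298) and KDM2B (-0.091 ± 0.036, 0.0625). Over the alternatives their adjusted p ranged from 1.04e-05 to 0.237 for KDM5A, 2.13e-05 to 0.165 for SETD5, 0.00108 to 0.0863 for KDM4D, 0.00179 to 0.0805 for DNMT3A, 0.00145 to 0.056 for SIRT1, 0.00644 to 0.298 for SIRT6 and 0.00413 to 0.0987 for KDM2B. SETD6 kept its call among chromosome 16 neighbours at -0.38, with -0.38 ± 0.048 left. HDAC11 (0.84 ± 0.097), HDAC5 (0.57 ± 0.082), HDAC4 (0.50 ± 0.042), PRMT3 (-0.40 ± 0.036), PRMT9 (-0.43 ± 0.059), PRMT5 (-0.33 ± 0.044), PRMT2 (0.47 ± 0.055) and CBX6 (0.46 ± 0.046) also kept theirs. In all, 26 of the 36 members past the test kept direction and call, and 39 of 84 members passed relative to their neighbours, against 42.5% of all genes. Of these 14 were higher, where 22.2% of all genes were, and 25 lower, where 20.3% were.

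**Figure D3:**
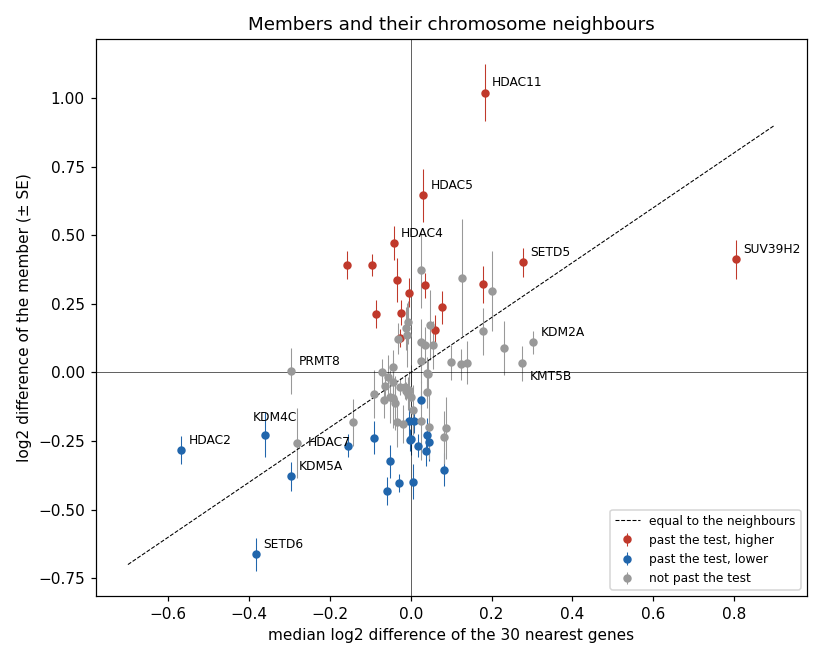
Log2 difference of each of 84 members (± SE, 5 arrays each) against the median difference of its 30 nearest genes in chromosome order; the dashed line marks equality. SUV39H2 and HDAC2 lie at 0.80 and -0.57 on the horizontal axis, whereas HDAC11, HDAC5 and HDAC4 lie within 0.19 of 0 on it.

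Genes read by several probe sets gave a check on the brightest one. Of the 36 members that passed, 29 had another probe set and 7 had none (CBX7, KDM1A, KDM2B, PRMT3, PRMT9, SETD1B and SIRT1). Another probe set passed in the same direction for 19 of the 29, while for 9 none of the others passed, and for HDAC8 and NSD2 another probe set passed in the opposite direction (NSD2 has others in both). Of 69 other probe sets 31 passed in the direction of the chosen one, 2 in the opposite direction and 36 did not pass, where 28.6% of all probe sets passed, 13.9% higher and 14.7% lower. Of 37 members that did not pass and have another probe set, 14 held a call on one, SETD2, CBX3, EED, NSD1 and KMT2A among them. Probe sets ending in _x_at or _s_at can read several transcripts or genes. Without them PRMT1 was at -0.041 (adjusted p = 0.579; 8.28e-05 to 0.579 over the alternatives). SIRT2 was at -0.028 (0.77; 4.48e-05 to 0.77) on a probe set near background (3.91). NSD3 was at -0.037 (0.671; 0.00031 to 0.671) and NSD2 at -0.34 (3.5e-05; 3.5e-05 to 0.0959). SIRT2, NSD3 and NSD2 turned in this alternative only and were higher in all others.

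**Figure D4:**
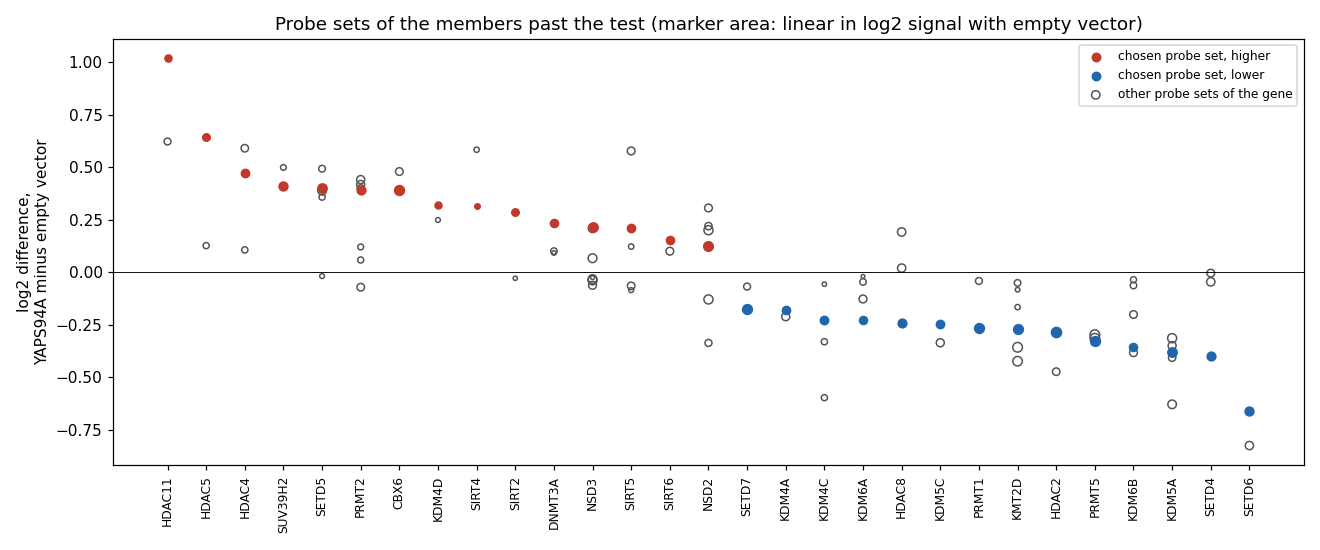
Log2 difference (YAPS94A minus empty vector, 5 arrays each) of every probe set of the 29 members that passed and have more than 1; filled markers are the brightest probe set, open ones the others, and marker area is linear in the log2 signal with empty vector. HDAC8 and NSD2 have probe sets on both sides of 0 that passed, and the open markers near 0 under SETD4 did not pass.

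Arrays with the same number in their labels deviated together from their group means, with correlations of 0.102 to 0.59 over all genes. Differently numbered arrays were not compared in this way, so a pairing by number is an assumption. The number was also fitted as a block. All 36 members kept direction and call, and 10 more passed, which made 46 of 85, against 41.2% of all genes. Of these 21 were higher (21.1% of all genes) and 25 lower (20.1% of all genes). HDAC6 was higher in each of the 5 pairs, by 0.15, 0.59, 0.31, 0.45 and 0.37 for the numbers 1 to 5, and passed with the block (adjusted p = 0.00137; 3.84e-06 to 0.119 over the alternatives). EHMT1 was lower in every pair, by signed differences of -0.18, -0.21, -0.28, -0.30 and -0.21 (adjusted p = 0.000849 with the block; 0.000849 to 0.183 over the alternatives). The 5 pairs of EHMT1 differed from each other by more than the vectors did, with 8.06, 7.98, 7.91, 7.76 and 7.66 with empty vector and 7.87, 7.78, 7.63, 7.46 and 7.45 with the construct. EZH2 read 11.62, 11.42, 11.41, 11.25 and 11.26 with empty vector, against 11.65, 11.75, 11.56, 11.45 and 11.46 with the construct, and was higher in 5 of 5 pairs (adjusted p = 0.0135 with the block; 5.93e-05 to 0.207 over the alternatives). HDAC7 was lower in 5 of 5 (0.00651; 0.00174 to 0.787), KDM3B higher in 5 of 5 (0.00509; 0.00509 to 0.716), SETD2 lower in 5 of 5 (0.0161; 0.00253 to 0.498), PRMT6 lower in 5 of 5 (0.0121; 0.0121 to 0.115) and KDM5B higher in 5 of 5 (0.0285; 0.0258 to 0.377). SETD1A was lower in 4 of 5 (0.0316, range 0.0158 to 0.295) and CBX5 higher in 4 of 5 (0.0357, range 0.0169 to 0.468). Relative to their chromosome neighbours HDAC6, EHMT1, PRMT6 and SETD1A passed in the same direction. HDAC7 (0.049, limma adjusted p = 0.787), KDM3B (0.076, 0.716) and SETD2 (-0.055, 0.498) did not, and HDAC7 changed sign. Their neighbours lay at -0.28, 0.20 and -0.14. EZH2 (0.15, 0.0558), KDM5B (0.14, 0.148) and CBX5 (0.22, 0.402) did not pass either.

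**Figure D5:**
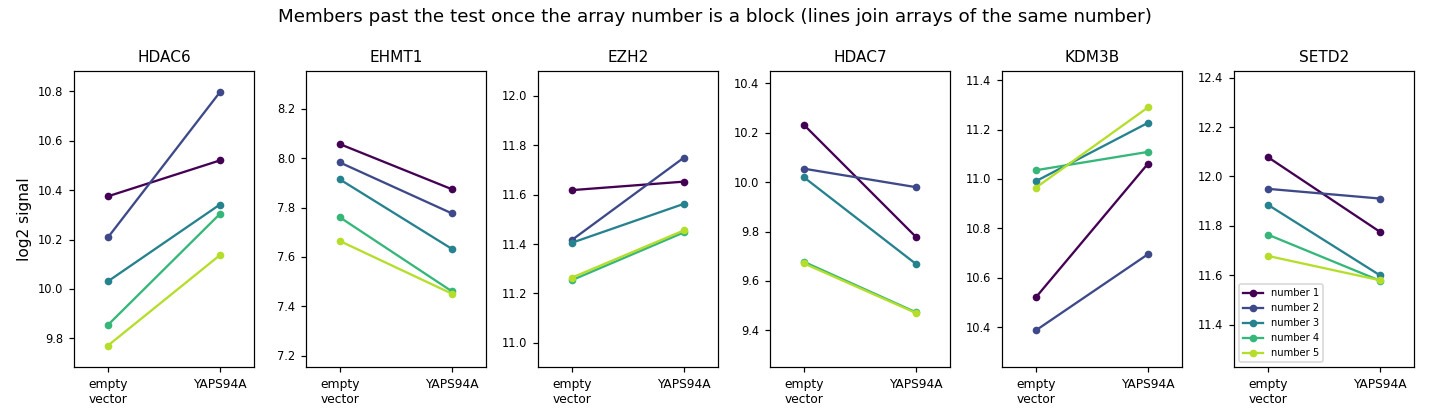
Log2 signal of 6 members that did not pass the main test and passed with the array number as a block; each line joins the empty vector array and the YAPS94A array of the same number. Lines of HDAC6, EZH2 and KDM3B all rise and those of EHMT1, HDAC7 and SETD2 all fall, and the lines of a panel start at different heights. The 6 were picked from 10 such members. SETD1A and CBX5, which are not shown, went in 1 direction in only 4 of 5 pairs.

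Single arrays decided some of the calls that were absent from the main fit. HDAC6 passed without empty vector array 1 (adjusted p = 0.0182) or YAPS94A array 5 (0.0271), EHMT1 without empty vector array 5 (0.0386) or YAPS94A array 1 (0.0327), and EZH2 without empty vector array 1 (0.0201). PRMT6 passed without empty vector array 1 (0.0328) or 2 (0.0383), NSD1 without empty vector array 1 (0.0493), and KDM2A without empty vector array 2 (0.0453) or YAPS94A array 4 (0.0491) or 5 (0.0498). Without YAPS94A array 2, KDM3B (0.0406), KDM5B (0.0258), SETD1A (0.0454) and SETD2 (0.0368) passed. The arrays differed in RNA quality as read from the 3′ minus 5′ control probe sets of GAPDH and ACTB, which ran from 0.48 to 0.85 log2 units with empty vector and from 0.45 to 0.82 with the construct. With that difference as a covariate 54 of 85 members passed, against 44.1% of all genes. Of these 26 were higher (23.0% of all genes) and 28 lower (21.1% of all genes), and all 36 kept their direction and call. Members that passed with it and with neither the main fit nor the block were EHMT2, EZH1, HDAC3, HDAC9, HDAC10, KDM2A, KDM3A, KDM4B, NSD1 and SUZ12.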

How the data were processed

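The table holds the authors' deposited log2 signals of 54675 probe sets on 10 arrays. The authors' summarisation and normalization are not given in the sources used here. RNA was isolated with an RNeasy kit, then amplified (Nugen Ovation) and biotin-labelled, per the labels' protocols. Values were used as deposited, and the number of arrays limits the precision.

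Gene symbols came from GEO's platform annotation and were updated by a RefSeq table (GRCh38.p14), which held 41043 of 41097 probe sets with 1 symbol; 1801 had several, 11777 none, and 62 controls were left out. The brightest probe set over the 10 arrays stood for a gene. Vectors were compared with limma 3.58.1 in R 4.3.3 (lmFit, eBayes, two-sided, Benjamini-Hochberg over 19775 genes, threshold 0.05). Differences are YAPS94A minus empty vector. In simulated data with few shifted genes the fit recovered 44% of shifts of 0.25 and 94% of shifts of 0.5, with 7 false calls. A gene that did not pass can therefore still differ by a small amount. A neighbour median is that of the 30 nearest genes in chromosome order above the median level, subtracted on each array.

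The numbers 1 to 5 come from the labels, which name no batch. Correlations of same-numbered deviations were above 0.1 in all 5 pairs (0.267, 0.59, 0.102, 0.351 and 0.465), and the numbers were taken to pair the arrays. Differently numbered arrays were not compared, so the pairing is an assumption. The 3′ minus 5′ difference was highest on empty vector array 1 (0.85) and YAPS94A array 2 (0.82), which differ in number. The main fit has no block. Members, lists and the naming rule were chosen with earlier results of these data known. Members past the test by at least 0.5 were to get array values; those of smaller size were given them after their values were seen. Lists were the classes of members, acetyltransferases, Polycomb, COMPASS, deacetylase complex and DNA methylation partners, enzymes outside the name rule, cofactor supply and markers of 5 cell types.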

Additional observations from a re-analysis of the deposited data

Results flagged for a closer look

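In each group of 5 arrays the gap between the outermost array and the nearest other one was compared with the whole range of the group, and 6 of 168 groups had an array that stood apart by more than the 95% critical value of Dixon's test (0.71 for 5 arrays). Chance flags about 1 group in 20. HDAC10 was high on empty vector array 1 (6.33, the next at 6.03), and SIRT5 was high on the same array (9.40, next 9.22). HDAC8 was low on empty vector array 2 (9.93, next 10.07), as was KDM1A (11.73, next 11.93). SETD3 was high on YAPS94A array 2 (12.26, next 12.16), and so was SUV39H1 (10.51, next 10.29).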

How the results depend on the processing

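The counts of members higher (16) and lower (20) stayed within 1.5 times under the 23 alternatives, except that 26 were higher with the RNA quality covariate. Leaving out 1 array at a time gave 15 to 19 higher, 18 to 21 lower and 6524 to 7206 genes past the test of all (7172). Over all probe sets 15643 passed. With the replicate block 21 members were higher, 25 lower and 8154 of all genes passed; it changed no call other than those given with the pairs. Of the 36 called members 18 kept direction and call under every alternative that measured them, and 19 of 48 uncalled members with values never passed. The direction turned relative to the neighbour median for HDAC2 (0.25), KDM2A (-0.24), KDM4C (0.11), KMT5B (-0.31) and SUV39H2 (-0.39), and without _x_at and _s_at probe sets for NSD2 (-0.34), NSD3 (-0.037) and SIRT2 (-0.028), where another probe set stands for the gene. A change of sign between values that both missed the threshold was not counted. HDAC8 (adjusted p = 0.886), NSD2 (0.0959) and NSD3 (0.241) did not pass in the mean of their probe sets. The causes were not tested. Low signal limits SIRT4, PRMT8 and TET1.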
